A study of Mus musculus with 9 samples.

Results

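The genes examined were 6 that encode matricellular proteins: the thrombospondins Thbs1, Thbs2 and Thbs3, Sparc, Spp1 and Tnc. They were taken by symbol from a table of 15768 mouse gene symbols, and all 6 had a row and were among the 10519 genes tested, those with at least 1 FPKM in 3 of the 9 libraries. RNA was sequenced from 3 lines of cultured tumour cells with 3 libraries each, 9 in all. LLC1 is a line from a mouse Lewis lung carcinoma, and SCC1 and SCC2 are subclones that were each grown from a single LLC1 cell by limiting dilution and passaged 5 to 8 times. All 3 lines are labelled wild type and untreated and were grown in the same medium with 10% serum, so each subclone is 1 clone set against a mixed parental line. Whether the 3 libraries of a line were grown as separate cultures is not stated in the labels. The p-values therefore weigh differences against the spread of these libraries alone, and that spread may be technical. Taking each of the 6 genes in each line, 8 of 18 groups had a relative spread no larger than counting fragments alone gives.

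Matricellular proteins are secreted into the extracellular matrix but act on cells more than they bear load: they bind integrins, CD44, CD47 and other receptors, growth factors and proteases, and change adhesion, migration and vessel growth. Thrombospondin 1 and thrombospondin 2 are trimers whose type 1 repeats restrain angiogenesis through CD36, and thrombospondin 1 can also release TGF-beta from its latent complex, while thrombospondin 3 is a pentamer that lacks those repeats. SPARC binds collagens and calcium, osteopontin (the product of Spp1) is a phosphorylated protein with an RGD integrin site, and tenascin-C, encoded by Tnc, binds fibronectin and loosens cell adhesion. In tumours these proteins are made both by cancer cells and by fibroblasts and macrophages of the stroma. Here only cultured tumour cells were measured.

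Values are FPKM, fragments scaled by gene length and library size, so levels can be compared between genes. Whole fragments worked back from the FPKM steps gave 17094808 to 19398657 fragments per library. Changes are log2 differences of FPKM + 1 from limma with adjusted p-values over all 10519 tested genes, and they understate the change of low genes. The comparisons of SCC1 and of SCC2 with LLC1 share the LLC1 libraries, so they are not independent of each other. In bulk RNA fewer cells with a transcript and less of it per cell cannot be told apart. Lung epithelial markers were low: Sftpc, Nkx2-1 and the epithelial cadherin Cdh1 stayed under 1 FPKM in every library, while the keratins Krt8 and Krt18 were at 113 ± 1.14 and 223 ± 3.6 FPKM in LLC1 (SD, n = 3). Both keratins were higher in SCC1, at 155 and 295 FPKM, and lower in SCC2, at 75.3 and 157 FPKM. Spp1 and Thbs3 moved in the same directions, and the part of the keratins in those changes was not tested. Of the 3 tested epithelial and lung markers, 2 were higher in SCC1 and 1 did not pass, where 39.2% of all tested genes were higher. In SCC2 all 3 were lower, as were 32.9% of all tested genes. The filter of 1 FPKM fixed the SCC2 direction of 1 of them, which had 0 SCC2 libraries at that level.

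The promoter entries of RefSeq (GRCm38.p6) covered 5 of the 6 genes, all but Thbs1. The 250 bases before the start site are shown for the pair that was higher than LLC1 in SCC1 and lower in SCC2 (Spp1 and Thbs3) and for Thbs2 and Tnc, which were lower in both subclones. The window of Sparc, also lower in both, is not shown because it overlaps an exon of a longer Sparc transcript in GENCODE, and it held 0 matches to the motifs below. Second entries of Spp1 (0 matches) and Tnc (2 matches, the same letters) overlap annotated exons too and are not shown. They are written 5′ to 3′ on the gene's strand, and capitals mark matches on either strand to 5 motifs, none of which overlap here. The motif of the core promoter box bound by TBP was TATAAA, that of AP-1 factors was TGANTCA, that of TEAD factors was GGAATG, that of RUNX factors was TGTGGT, and that of Sp1 was GGGCGG.
Spp1, plus strand, chr5:104434861-104435110: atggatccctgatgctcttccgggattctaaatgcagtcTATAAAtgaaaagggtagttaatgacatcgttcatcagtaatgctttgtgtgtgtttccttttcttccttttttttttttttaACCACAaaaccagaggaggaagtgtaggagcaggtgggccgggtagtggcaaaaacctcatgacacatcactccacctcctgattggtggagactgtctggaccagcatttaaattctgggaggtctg
Thbs3, plus strand, chr3:89214930-89215179: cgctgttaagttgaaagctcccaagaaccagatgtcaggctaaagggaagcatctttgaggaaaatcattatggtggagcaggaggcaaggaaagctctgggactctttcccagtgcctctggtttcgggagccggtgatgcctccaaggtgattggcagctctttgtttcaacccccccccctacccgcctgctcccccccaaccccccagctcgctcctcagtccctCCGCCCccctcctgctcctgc
Thbs2, minus strand, chr17:14694263-14694512: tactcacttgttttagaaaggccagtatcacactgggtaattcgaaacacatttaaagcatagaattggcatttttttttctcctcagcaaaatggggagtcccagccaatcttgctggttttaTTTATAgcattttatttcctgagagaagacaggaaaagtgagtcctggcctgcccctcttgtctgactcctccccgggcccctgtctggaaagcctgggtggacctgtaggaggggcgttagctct
Tnc, minus strand, chr4:64047016-64047265: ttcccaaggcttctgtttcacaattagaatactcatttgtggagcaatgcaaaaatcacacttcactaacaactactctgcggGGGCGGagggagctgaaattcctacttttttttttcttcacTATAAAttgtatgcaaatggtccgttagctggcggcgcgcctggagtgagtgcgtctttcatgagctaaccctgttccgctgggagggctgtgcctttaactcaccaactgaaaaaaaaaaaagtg

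The Spp1 window held a TATAAA match 211 bases and a reversed RUNX match 128 bases before the start. The Thbs3 window held 1 match, a reversed GGGCGG 21 bases before the start. Thbs2 had a reversed TATAAA at 126 bases, and Tnc had GGGCGG at 167 bases and TATAAA at 126 bases. These letters are common: among 32851 promoter windows of this length, 12.4% held TATAAA, 14% TGTGGT and 32.7% GGGCGG. No AP-1 or TEAD letters were found in the 4 windows, against 6.75% and 12.6% of all windows. The share of G or C was 58.8% for Thbs3, 46.8% for Thbs2, 44.8% for Tnc and 43.6% for Spp1. The matches describe letters only, and Spp1 and Thbs3 had no motif in common.

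Spp1 was by far the most abundant of the 6 transcripts in every line, and Tnc the least. In LLC1 the mean levels ran from Spp1 (535 FPKM) through Sparc (183) and Thbs2 (129) to Thbs1 (12.6), Thbs3 (12.3) and Tnc (2.39). The libraries of Thbs1 and Thbs3 overlapped in LLC1, and no other neighbours in the order overlapped in any line. In SCC1 Sparc fell behind Thbs2 and Thbs1 behind Thbs3, whereas SCC2 kept the order of LLC1 with Thbs1 2.41 times the level of Thbs3. Spp1 made up 60.4% to 61.8% of the summed FPKM of the 6 genes in LLC1 libraries, 77.3% to 77.8% in SCC1 and 64.3% to 65.0% in SCC2. Levels set between genes rest on the gene lengths behind the FPKM. Those implied by the fragments, if the recovered fragments are the library total, were 1607 bases for Spp1, 3214 for Thbs3 and 7301 for Tnc, against longest GENCODE transcripts of 1507, 4034 and 7106 bases.

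**Figure D1:**
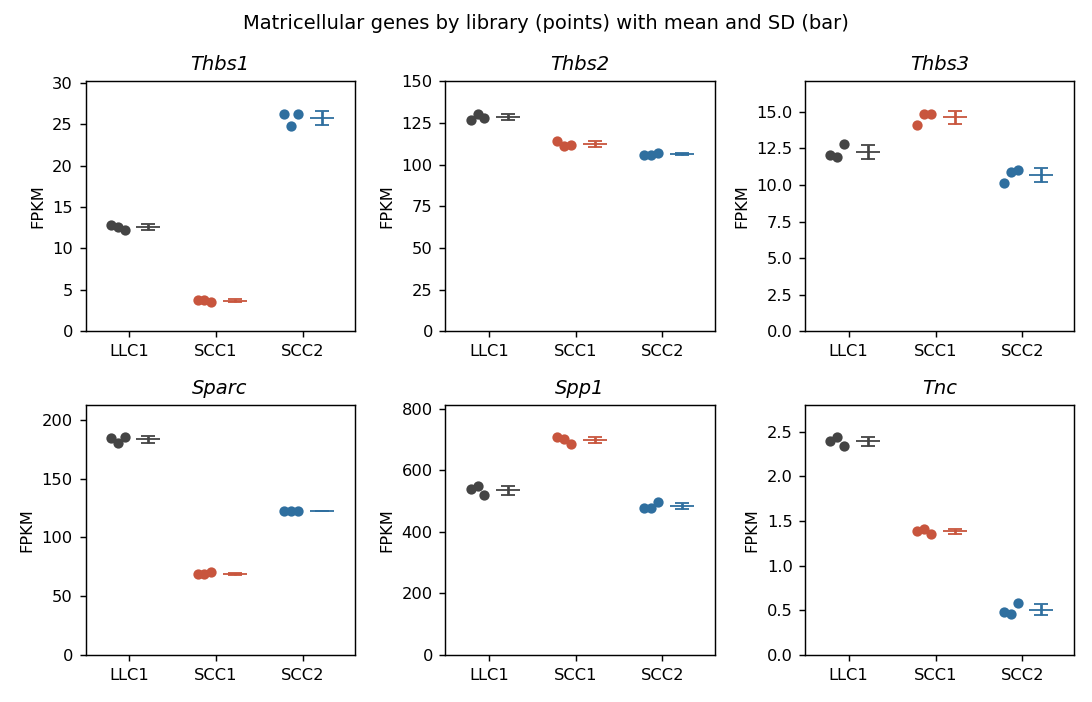
FPKM of the 6 genes (vertical axes from 0, one panel a gene) in the 3 libraries of LLC1, SCC1 and SCC2 (points), with the mean and SD beside them. In every panel the 3 libraries of a line form a group that does not overlap the other lines, and Thbs1 runs from 3.52 FPKM in SCC1 to 26.3 in SCC2.

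All 6 genes passed an adjusted p of 0.05 in each of the 3 comparisons, and their libraries never overlapped between lines. Such calls were common in these data, so nothing is read from the count. Of all tested genes 70.1% passed in SCC1 against LLC1, 67.6% in SCC2 against LLC1 and 76.3% in SCC2 against SCC1, and 72.3%, 70.7% and 77.9% had libraries that did not overlap. In SCC2 against SCC1 37% of tested genes were higher, as were Thbs1 and Sparc, and 39.4% were lower, as were Thbs2, Thbs3, Spp1 and Tnc. The sizes of the changes set the genes apart from one another. Thbs1 and Sparc were called lower by 2-fold or more on the FPKM + 1 scale in SCC1, as were 1.42% of all tested genes (0.494% were higher and 1.91% either). Tnc was called lower by 2-fold or more in SCC2, as were 1.34% of tested genes (1.58% in either direction), but no SCC2 library reached 1 FPKM, so the filter fixed its direction there. Between the subclones Thbs1 was called higher by 2-fold or more, as were 1.5% of tested genes (1.84% were lower and 3.35% either). Thbs1 in SCC2 lay just under that line, and passed it without SCC2 replicate 2, which made 2 genes there.

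**Figure D2:**
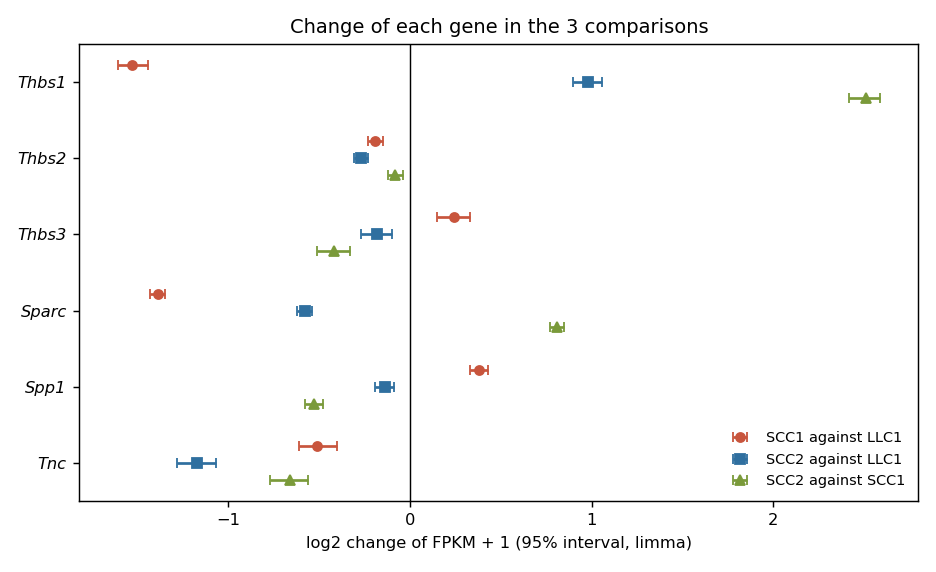
Log2 change of FPKM + 1 (horizontal axis) with its 95% interval from limma for the 6 genes in 3 comparisons, SCC1 against LLC1 (circles), SCC2 against LLC1 (squares) and SCC2 against SCC1 (triangles). No interval crosses 0, and Thbs1 has opposite signs in the subclones, -1.53 in SCC1 and 0.98 in SCC2.

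Thbs1, the thrombospondin that can activate latent TGF-beta, was lower than the parent in SCC1 and higher in SCC2. The LLC1 libraries had 12.9, 12.6 and 12.2 FPKM, SCC1 had 3.78, 3.83 and 3.52, and SCC2 had 26.3, 24.7 and 26.3. All SCC1 libraries were thus below and all SCC2 libraries above the parental range. The log2 change was -1.53 (SE 0.038, limma adjusted p = 3.36e-11) in SCC1 and 0.98 (adjusted p = 1.49e-09) in SCC2. Between the subclones the mean levels differed 6.95-fold, a log2 change of 2.51 (95% interval 2.42 to 2.59, limma adjusted p = 2.56e-13), and 0.209% of tested genes changed by more. The values rest on 376 to 2835 fragments per library.

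Thbs2, the trimeric relative that lacks the TGF-beta activating function, carried most thrombospondin transcripts and moved little. Its libraries had 127, 131 and 128 FPKM in LLC1, 114, 111 and 112 in SCC1, and 106.1, 106.1 and 107 in SCC2. The subclones lay under the parent by log2 changes of -0.19 (SE 0.0184, limma adjusted p = 2.20e-06) and -0.27 (adjusted p = 1.50e-07). The difference between the subclones was -0.08 (limma adjusted p = 0.00221), and 80.8% of tested genes differed by more. It turned to 0.10 when the median change of each chromosome was removed, and the SCC2 change went to -0.14, since genes of chromosome 17 had a median log2 change of -0.13 in SCC2.

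Thbs3, the pentameric thrombospondin, was higher in SCC1 and lower in SCC2. The LLC1 libraries had 12.0, 11.9 and 12.8 FPKM, those of SCC1 14.1, 14.9 and 14.9, and those of SCC2 10.2, 10.9 and 11.0. The ranges were close but did not overlap. The log2 change was 0.24 in SCC1 (SE 0.0398, limma adjusted p = 2.21e-04), -0.18 in SCC2 (adjusted p = 0.00158) and -0.42 between the subclones (adjusted p = 1.31e-06). In GENCODE M21 the gene (chr3:89215180-89226837, plus strand) shares 318 exonic bases with Mtx1 on the opposite strand, and the sources used here do not say if fragments were counted by strand, so the 2 genes may share fragments. Mtx1, which encodes a mitochondrial import protein, had 31.9, 31.1 and 29.9 FPKM in LLC1, SCC1 and SCC2 and passed the test in 0 of the 3 comparisons. Its RefSeq start lies 1273 bases from that of Thbs3, in the opposite direction.

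The make-up of the thrombospondin pool differed between the lines, as did its size. The summed FPKM of Thbs1, Thbs2 and Thbs3 was 153 ± 1.68 in LLC1, 131 ± 1.38 in SCC1 and 143 ± 1.35 in SCC2 (SD, n = 3 each). Thbs1 made up 8.19% ± 0.271 of that sum in LLC1, 2.84% ± 0.122 in SCC1 and 18.0% ± 0.509 in SCC2. Thbs2 made up 83.8%, 86.0% and 74.5%. The level of Thbs2 was 10.2 times that of Thbs1 in LLC1, 30.4 times in SCC1 and 4.13 times in SCC2. Of the related pentameric genes, Comp stayed at 0.142 FPKM or less in every library, and Thbs4 was not analysed here.

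**Figure D3:**
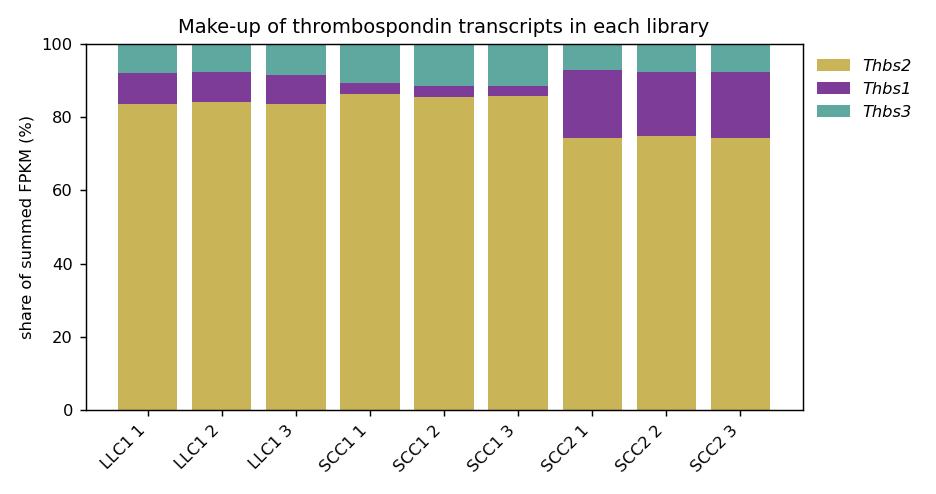
Share (percent) of Thbs2, Thbs1 and Thbs3 in their summed FPKM, one bar for each of the 9 libraries. The Thbs1 band is 7.96% to 8.49% in LLC1, 2.71% to 2.95% in SCC1 and 17.5% to 18.4% in SCC2.

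Sparc, the collagen-binding glycoprotein also called osteonectin, was lower in both subclones and most so in SCC1. The libraries had 185, 180.3 and 185 FPKM in LLC1, 68.7, 68.8 and 70.2 in SCC1, and 123, 122 and 122 in SCC2. SCC2 thus lay between the parent and SCC1 with no overlap. The parental level was 2.65 times that of SCC1 (log2 change -1.39, SE 0.0174, limma adjusted p = 2.15e-13) and 1.50 times that of SCC2 (-0.58, adjusted p = 1.98e-10). Between the subclones the log2 change was 0.81 (limma adjusted p = 5.10e-12). In SCC1 0.77% of tested genes changed by more than Sparc, and in SCC2 5.86% did.

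Spp1, which encodes osteopontin, was higher in SCC1 and slightly lower in SCC2. Its libraries had 537, 548 and 519 FPKM in LLC1, 706, 699.96 and 686 in SCC1, and 477, 478 and 496 in SCC2. It ranked 99th of all genes by mean FPKM in LLC1, 74th in SCC1 and 107th in SCC2. The log2 change was 0.38 in SCC1 (SE 0.0226, limma adjusted p = 3.60e-08), -0.14 in SCC2 (adjusted p = 1.41e-04) and -0.53 between the subclones (adjusted p = 1.31e-09). The change in SCC2 was small for these data, since 55% of tested genes changed by more. Spp1 stood at 2.80 to 3.04 times the level of Sparc in LLC1 libraries, 9.78 to 10.3 times in SCC1 and 3.89 to 4.06 times in SCC2.

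Spp1 is also a macrophage transcript, so macrophage and leukocyte markers were read beside it. Of the 12 markers, Csf1r, Cx3cr1, Lyz2, Fcgr1 and Aif1 stayed under 1 FPKM in every library, and Adgre1, Ptprc, Itgam and Tyrobp were not analysed here. The remaining 3, Cd14, Cd68 and Mrc1, were higher in SCC1 than in LLC1, as were 39.2% of all tested genes. In SCC2 Cd14 was higher (log2 change 0.36), Cd68 was lower (-0.33) and Mrc1 did not pass (-0.04), beside -0.14 for Spp1. The summed FPKM of the list was 15.9 to 17.3 in LLC1, 28.1 to 32.2 in SCC1 and 18.8 to 19.4 in SCC2. Mean Csf1r, which encodes the receptor that macrophages need, was 0.0046, 0.0182 and 0 FPKM in the same order, while Spp1 was at 477 FPKM or more in every library. The rise of Cd14, Cd68 and Mrc1 moved with that of Spp1 in SCC1, and their part in it was not tested. Mrc1 reached 1 FPKM in SCC1 libraries alone, so the filter fixed its direction.

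Tnc was the least abundant gene and was lower than LLC1 in both subclones, most so in SCC2. The libraries had 2.40, 2.44 and 2.34 FPKM in LLC1, 1.38, 1.40 and 1.36 in SCC1, and 0.477, 0.463 and 0.579 in SCC2, where they rest on 63 to 78 fragments. The parental mean was 1.73 times that of SCC1 and 4.72 times that of SCC2. On the FPKM + 1 scale the log2 changes were -0.51 (SE 0.0478, limma adjusted p = 1.92e-06) and -1.17 (adjusted p = 2.29e-09), and -0.66 between the subclones (adjusted p = 1.19e-07). On recovered fragments, with no such pseudocount, limma-voom gave -0.79, -2.24 and -1.45. Tnc passed the filter through LLC1 and SCC1, with 0 of 3 SCC2 libraries at 1 FPKM. Genes of chromosome 4 had a median log2 change of -0.33 in SCC1, and with chromosome medians removed the change of Tnc in SCC1 was -0.18 (limma adjusted p = 0.00694). Both values are on the FPKM + 1 scale, which understates the change of a gene as low as Tnc. The part of the chromosome in that change cannot be read from them.

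Nearby genes were read to see whether a whole stretch of chromosome moved with a gene. Around Thbs1 (chr2:118111876-118127133) the 4 tested neighbours, Meis2, Spred1, Fam98b and Eif2ak4, had log2 changes of -0.49 to 0.02 in SCC1 and -0.25 to 0.06 in SCC2, beside -1.53 and 0.98 for Thbs1. The 2 genes directly after Thbs1 were under the filter and not tested. Fsip1 had mean levels of 0.0425, 0.00458 and 0.0644 FPKM in LLC1, SCC1 and SCC2, and Gpr176 had 0.268, 0.00743 and 0.329, the same order of lines as Thbs1. Around Sparc (chr11:55394500-55423183) all 4 tested neighbours rose in SCC1, by 0.13 to 0.46, where Sparc fell. Of all tested genes 39.2% were higher in SCC1, and those of chromosome 11 had a median change of 0.17. Around Tnc (chr4:63959785-64047015) 4 of 5 tested neighbours were lower in SCC1, with changes of -0.47 to 0.11 beside -0.51 for Tnc. The FPKM + 1 scale understates the change of a gene as low as Tnc. In SCC1 30.9% of all tested genes were lower, and those of chromosome 4 had a median change of -0.33. In SCC2 the neighbours of Tnc had -0.30 to -0.04 beside -1.17. Next to Thbs2 (chr17:14665500-14694235) lies Smoc2, a member of the SPARC family, with mean levels of 0.193, 0.0191 and 2.82 FPKM in LLC1, SCC1 and SCC2. The SPARC relative Sparcl1 and the osteopontin relative Dmp1, the nearest genes before Spp1 (chr5:104435118-104441050), stayed at 0.0893 FPKM or less in every library, and the 3 tested neighbours of Spp1 had changes of -0.22 to 0.47 in SCC1 and -0.10 to 0.33 in SCC2. Near Thbs3, which had changes of 0.24 in SCC1 and -0.18 in SCC2, Fam189b moved in the same directions, by 0.50 and -0.38. Krtcap2 rose in both subclones, by 0.21 and 0.18, while Trim46 had 0.09 and -0.15 and passed the test in neither.

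**Figure D4:**
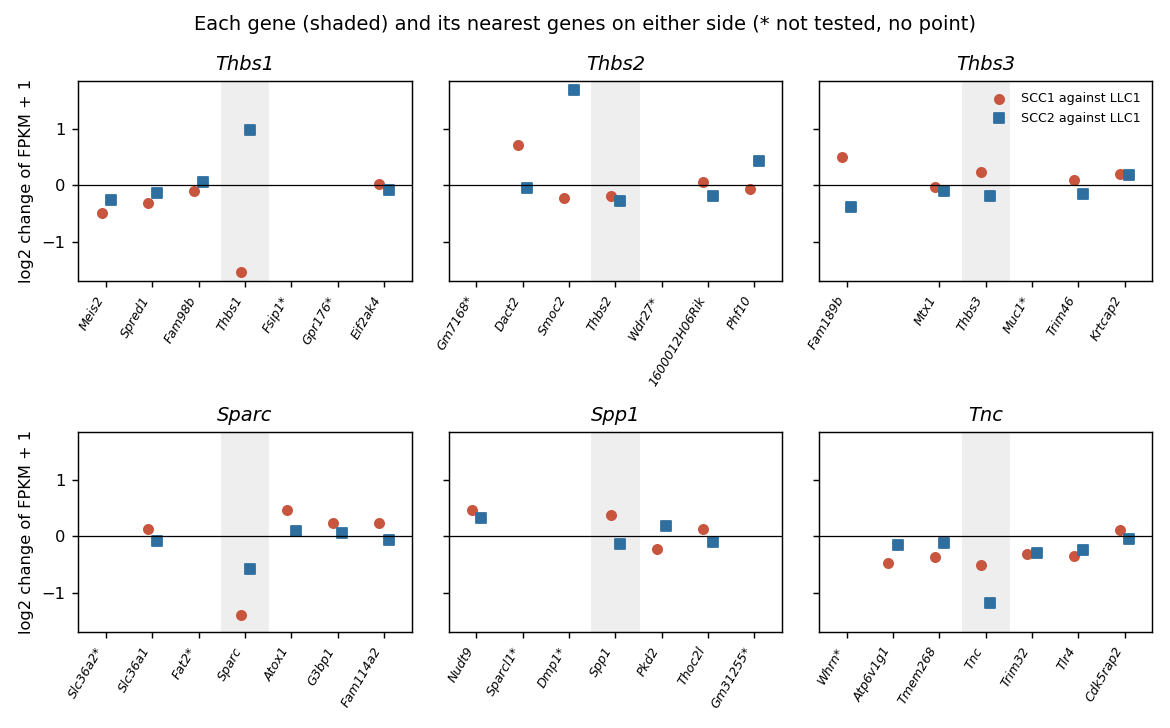
Log2 change of FPKM + 1 in SCC1 (circles) and SCC2 (squares) against LLC1 for each gene (shaded) and its 3 nearest genes of the table on either side, in chromosome order and not to scale of distance, with 1 neighbour of Thbs3 not shown. Thbs1 and Sparc stand apart from their tested neighbours, while the neighbours of Tnc in SCC1 reach -0.47 beside its -0.51. The scale understates the change of low genes such as Tnc.

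Other matricellular genes showed mixed directions. Of 27 listed, 9 were tested, of which 3 rose and 5 fell in SCC1 (median -0.14, against 0.033 for all tested genes, of which 39.2% rose and 30.9% fell). In SCC2 3 rose and 5 fell (median -0.19 against 0.008, with 34.7% and 32.9% of all genes). Fbln1, the matrix glycoprotein fibulin 1, went from 10.7 ± 0.418 to 4.71 ± 0.0996 FPKM in SCC2, and Ccn4, a Wnt-induced CCN protein, from 6.17 ± 0.144 to 11.8 ± 0.255 in SCC1. Smoc2 passed the filter through SCC2 alone, so its rise there was fixed by the filter. The TGF-beta and YAP target Ccn2, often a major matricellular gene, stayed at 0.178 FPKM or less in every library, and Tnxb, Tnn and Tnr were all at 1.08 FPKM or less.

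The shares of all tested genes just given, 39.2% higher and 30.9% lower in SCC1 and 34.7% higher and 32.9% lower in SCC2, are the background for the lists that follow. Among 16 tested receptors, 9 were lower and 2 higher in SCC1 (median -0.16), and 7 lower and 8 higher in SCC2 (median 0.04). Of those 8, Cacna2d1 had 0 LLC1, 1 SCC1 and 3 SCC2 libraries at 1 FPKM, so the filter fixed its direction in SCC2. Cd44, a receptor of osteopontin and hyaluronan, had 86.2 ± 1.0 FPKM in LLC1, 56.8 ± 0.665 in SCC1 and 102 ± 1.85 in SCC2. Itgb1, the integrin beta 1 chain, moved in the same directions, with 149, 111 and 177 FPKM. Itga3, an integrin chain that binds thrombospondin 1, fell from 45.2 ± 2.36 to 15.5 ± 0.413 FPKM in SCC2 (log2 change -1.48, limma adjusted p = 8.07e-11), and the syndecan Sdc1 rose from 54.3 ± 0.223 to 83.9 ± 0.452. Cd47, the receptor of the thrombospondin 1 carboxyl end, had 15.2, 15.2 and 15.6 FPKM and passed in 0 of the 3 comparisons. Cd36 was not analysed here, and Itgb3, partner of the alpha v chain in a classic osteopontin receptor, stayed at 0.286 FPKM or less, whereas Itgav had 23.1, 18.2 and 19.5 FPKM.

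Of 14 tested matrix and growth factor partners, 9 were lower and 4 higher in SCC1 (median -0.42, where 30.9% of all tested genes were lower and 39.2% higher), and in SCC2 7 were lower and 5 higher (median -0.09). SPARC and other matricellular proteins bind collagens and perlecan. Col3a1 had 575 ± 13.1 FPKM in LLC1, 257 ± 5.0 in SCC1 and 699 ± 12.0 in SCC2, and Hspg2, which encodes perlecan, 153, 63.5 and 161. Col8a1 went from 9.29 ± 0.193 to 1.96 ± 0.0618 FPKM in SCC1 (log2 change -1.80, limma adjusted p = 5.74e-12) and 6.91 in SCC2, and Col4a2 from 117 to 69.9 and 118. Tgfb1, the growth factor that thrombospondin 1 can activate, was 14.0 FPKM in LLC1, 18.3 in SCC1 and 6.41 in SCC2, the reverse of the order of Thbs1. Col1a1, a main SPARC ligand elsewhere, stayed at 0.523 FPKM or less.

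Enzymes that cut or modify these proteins were listed together with the chaperones Hsp90b1 and Hspa5. Of the 17 tested genes of that list, 13 were lower and 2 higher in SCC1 (median -0.38, against the same 30.9% and 39.2%). In SCC2 5 were lower and 7 higher (median 0.03). Plat, the tissue plasminogen activator, had 17.3 ± 0.612 FPKM in LLC1, 6.05 ± 0.461 in SCC1 and 18.3 ± 0.318 in SCC2, and the urokinase Plau 89.4, 68.6 and 34.6. The endoplasmic reticulum chaperones Hsp90b1 (413, 297 and 490 FPKM) and Hspa5 (372, 352 and 472) were lower in SCC1 and higher in SCC2. Among 20 tested transcription factors and other regulators known to act on such genes, 11 were lower and 6 higher in SCC1 (median -0.16). In SCC2 12 were lower and 7 higher (median -0.13, where 32.9% of all tested genes were lower and 34.7% higher). Smad4, the common Smad of TGF-beta signalling, had 23.8, 29.6 and 17.0 FPKM, the AP-1 factor Fosl1 160, 188 and 146, and the receptor Notch2 18.3, 12.8 and 20.1. The immediate early factor Egr1 had 2.43, 0.846 and 2.65 FPKM. With 0 SCC1 libraries at 1 FPKM, Egr1 passed the filter through LLC1 and SCC2, so its direction in SCC1 was fixed by the filter.

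**Figure D5:**
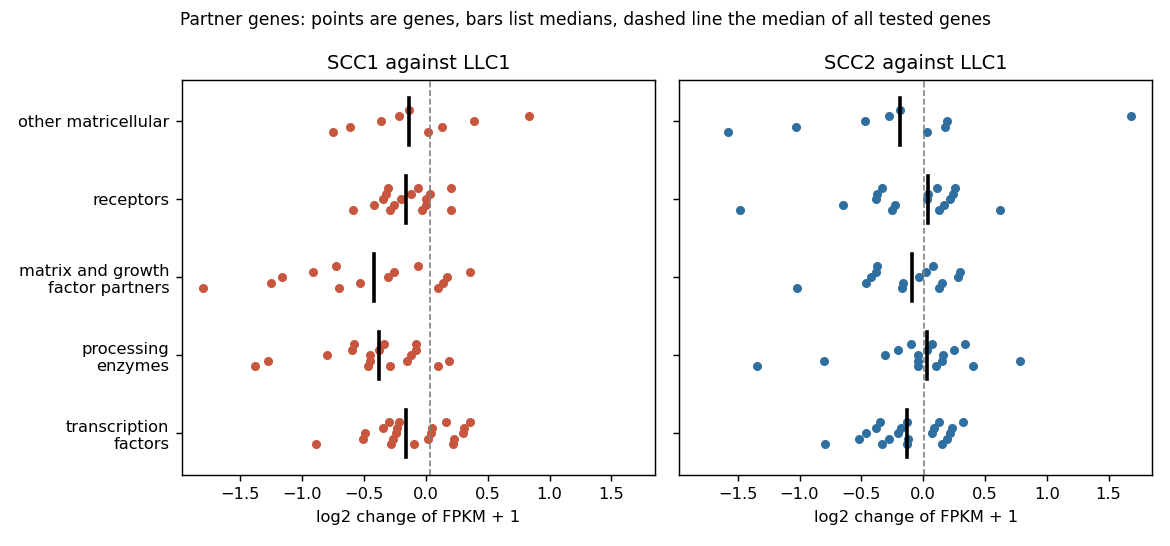
Log2 change of FPKM + 1 of the tested genes (points) of 5 lists in SCC1 (left) and SCC2 (right) against LLC1, with the list median (bar) and the median of all tested genes (dashed line). In SCC1 the medians of partners (-0.42) and of processing enzymes with chaperones (-0.38) lie below the dashed line at 0.033. In SCC2 these medians lie at -0.09 and 0.03.

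Fibroblast markers were read beside Sparc, since fibroblasts are its usual source in tumours. Pdgfrb and Fap stayed under 1 FPKM in every library and Thy1 was not analysed here. Lum, also under the filter and not tested, had mean levels of 0.725, 0.0865 and 0.994 FPKM in LLC1, SCC1 and SCC2. All 4 tested markers, Col3a1, Dcn, Pdgfra and Acta2, were lower in SCC1, as were 30.9% of all tested genes. In SCC2 Col3a1 was higher and the other 3 were lower, where 34.7% of all tested genes were higher and 32.9% lower. Acta2 had 0 SCC1 libraries at 1 FPKM and passed the filter through LLC1 and 1 SCC2 library, so its direction in SCC1 was fixed by the filter. The summed FPKM of the list, nearly all of it Col3a1, was 574 to 599 in LLC1, 258 to 268 in SCC1 and 693 to 715 in SCC2. The sum moved with Sparc in SCC1 and against it in SCC2, and its part in the change of Sparc was not tested. Endothelial markers summed to 0.096 FPKM or less in every library.

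Across the 9 libraries, genes with the likest profile to each of the 6 were sought among 475 genes whose line means spanned at least 1 on the log2 scale. These correlations reflect mainly 3 line means and are a description. Thbs1 was most like Dkk1 (Pearson r = 0.999 over 9 libraries), which had 5.30, 0.0471 and 21.4 FPKM in LLC1, SCC1 and SCC2, followed by Fgf10 and Pxdn. Sparc was most like Anxa6 (r = 0.998), Cthrc1 and Fut4. Anxa6 lies on chromosome 11, as Sparc does, but was not among the neighbours read above. It had 12.0, 0.620 and 4.67 FPKM in LLC1, SCC1 and SCC2, so a gene of that chromosome fell with Sparc. Spp1 was most like Dglucy (r = 0.996), Trp53inp1 and Ifitm1, Tnc like Fgf11 (r = 0.996), Ggt7 and Fzd6, Thbs2 like Glipr2 (r = 0.991), Vsir and Enpp2, and Thbs3 like Kctd11 (r = 0.983), Il12rb1 and Atp6v0e2.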

How the data were processed

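RNA of 9 libraries, 3 for each of LLC1, SCC1 and SCC2 (grouped by sample title), was deposited as FPKM values. The authors computed FPKM with cufflinks after Trimmomatic trimming and hisat2 mapping, per the series' design text. The sources used here name neither the tools' versions nor the gene annotation. Builds GRCm38 and mm10 stand in the submitters' processing notes. Different extraction and library kits are named by the design text and by the sample protocols. FPKM is relative to the other RNA of a library.

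Fragments were worked back from the FPKM steps: all 12270 genes above 0 in every library came out whole within 0.001 fragments, up to a factor common to a gene's counts, taken as the smallest. The 10519 genes that reached 1 FPKM in 3 or more of the 9 libraries were tested on log2(FPKM + 1), two-sided, with limma 3.58.1 (trend and robust eBayes) in R 4.3.3, all libraries in one fit, Benjamini-Hochberg adjustment and a threshold of 0.05, and checked on simulated data. Tables used Python 3.11.15. Genes and lists (9 lists, 152 entries, without published source) were chosen with earlier results of these data known. All 6 genes are named, with up to 4 genes of each list by smallest adjusted p, 3 likest genes by correlation and 3 neighbours on each side. Other list genes named for their role were chosen after their values were seen. Loci are from GENCODE M21, and gene order and promoters from RefSeq GRCm38.p6. Alternatives were another pseudocount, filters, scalings, limma options, limma-voom, chromosome centring, a replicate block and leaving out each library. Some genes that the naming rule picks are not reported here.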

Additional observations from a re-analysis of the deposited data

Results flagged for a closer look

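The change from LLC1 differed between SCC2 and SCC1 for all 6 genes, by limma's test of SCC2 against SCC1. The difference on the log2(FPKM + 1) scale was 2.51 for Thbs1, 0.81 for Sparc, -0.66 for Tnc, -0.53 for Spp1, -0.42 for Thbs3 and -0.08 for Thbs2, each in 3 of 3 libraries against 3. Of all tested genes 76.3% passed this test. Tnc had 0 SCC2 libraries at 1 FPKM, so the filter fixed its direction. The Thbs2 difference turned to 0.10 with chromosome medians removed.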

How the results depend on the processing

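All 6 genes stayed past the threshold in all 3 comparisons under each of 19 alternatives that tested them. Of 339 alternative log2 changes, 338 kept direction and call, and 1 reversed, Thbs2 in SCC2 against SCC1 at 0.10 with chromosome medians removed. Tnc was not tested where FPKM of at least 5 was required. Counts at 2-fold or more moved with the scale. With a pseudocount of 0.1, 368 genes were called in SCC1 against LLC1 (201 in the report's fit), 357 in SCC2 against LLC1 (166) and 607 in SCC2 against SCC1 (352). Limma-voom on recovered fragments gave 400, 385 and 662, and the filter of at least 5 FPKM gave 110, 86 and 217. Of the 6 genes, 1 was called at 2-fold or more in SCC2 against LLC1, against 2 with pseudocount 0.1, voom or chromosome medians removed, 0 with quantile normalization or the filter of 5 FPKM, and 1 to 2 leaving out 1 library. In SCC2 against SCC1 it was 1, against 2 with pseudocount 0.1, voom or chromosome medians removed. Replicate numbers did not pair the libraries (same-number correlations -0.0683 to 0.089), and with the replicate number as a block 7306, 7046 and 7962 genes were called and no call of the 6 changed. Of 1026 alternative list counts, 22 moved by over 1.5 times. Depth limits Tnc most, at 63 to 78 fragments in SCC2. The causes of these moves were not tested.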
